A study of Homo sapiens with 9 samples.

Results

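The genes described here are 9 of the 12 with the steepest fitted falls when LNCaP cells were given androgen, namely LRRN1, FAM198B, CAMK2N1, CXCR7, SI, DDC, OPRK1, BCHE and PKIB. They are 9 of the 25142 entries of an RNA-seq expression table, were found in it by symbol, and all 9 passed the filter on low values that left 13295 genes for testing. They were chosen because their level with androgen was so far below vehicle in these same libraries, so that fall is given as a description only. LNCaP is a prostate cancer line, derived from a lymph node metastasis, that carries the androgen receptor and responds to androgen. Cells were deprived of steroids for 24 h in 5% charcoal-treated serum and then treated for 18 h. One group received 1 nM of the synthetic androgen R1881 plus 10 µM MEL-6, a compound that the labels give only as a code name. The others received 1 nM R1881 alone or the vehicle DMSO, and every group, vehicle included, went through the same steroid deprivation. Each group had 3 libraries labelled as biological replicates of a single cell line, and the experiment was set up to ask whether MEL-6 acts on the androgen receptor.

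The androgen receptor is a ligand-activated transcription factor. Bound to androgen it enters the nucleus, occupies DNA near its target genes together with forkhead proteins, and raises the transcription of genes such as KLK3, which encodes prostate-specific antigen. It also lowers many genes, in part by recruiting corepressors and in part by taking cofactors away from other enhancers, and genes of this kind often come back when androgen is withdrawn or the receptor is blocked. The repressed genes described here share no single function. A pair of them encode receptors of the cell surface, another pair encode small inhibitors of protein kinases, 3 encode enzymes best known from brain, serum and intestine, and the remaining ones encode a neuronal membrane protein and a Golgi protein.

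Sequence upstream of their annotated starts was read from RefSeq on GRCh38.p14, which lists FAM198B as GASK1B and CXCR7 as ACKR3. Windows of 300 bases, 250 before and 50 after a start, were used for 6 of the genes, 10 windows in all. CAMK2N1, CXCR7 and OPRK1 were not among the 6. The 3 stretches below are shown because they span the range of promoter types among these genes. They are the 250 bases before the start of SI (chr3:165078497-165078746, minus strand), of FAM198B at its second window (chr4:158172374-158172623, minus strand) and of LRRN1 (chr3:3799181-3799430, plus strand). Capitals mark AGAACA or its reverse complement TGTTCT, the half-site bound by the androgen receptor, in SI and FAM198B, and the GC box GGGCGG in LRRN1.
SI: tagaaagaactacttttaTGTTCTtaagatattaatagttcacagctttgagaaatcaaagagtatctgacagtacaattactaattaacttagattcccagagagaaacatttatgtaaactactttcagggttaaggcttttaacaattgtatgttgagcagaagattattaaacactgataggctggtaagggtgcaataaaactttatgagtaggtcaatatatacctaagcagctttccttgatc
FAM198B: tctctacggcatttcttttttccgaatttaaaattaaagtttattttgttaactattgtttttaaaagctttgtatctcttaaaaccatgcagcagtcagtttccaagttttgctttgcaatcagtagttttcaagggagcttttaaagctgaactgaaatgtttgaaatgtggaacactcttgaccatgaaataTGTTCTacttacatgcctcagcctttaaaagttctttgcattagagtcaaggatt
LRRN1: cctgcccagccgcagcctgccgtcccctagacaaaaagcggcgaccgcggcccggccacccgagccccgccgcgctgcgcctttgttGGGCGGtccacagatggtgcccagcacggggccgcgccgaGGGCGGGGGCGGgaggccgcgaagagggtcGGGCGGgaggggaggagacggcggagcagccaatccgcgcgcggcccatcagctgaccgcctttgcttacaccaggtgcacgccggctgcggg

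Both strands were searched, with the start base counted as position 0. The half-site was in 4 of the 10 windows, against 14.8% of 35116 RefSeq windows of the same length. The 4 windows belong to 3 of the 6 genes, so they are not independent. They had 32.7% to 43.7% G and C bases, and the share among windows of like composition was not computed. SI held it at -232 to -227 and again at 44 to 49, and FAM198B held it at -55 to -50 in the window shown and at 44 to 49 in its other window. The remaining match was in 1 of 3 windows of PKIB. The complete palindromic element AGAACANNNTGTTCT was in none of the 10 windows, and it was in 0.00285% of all windows. The forkhead letters TGTTTAC were also in none of them, against 3.42% of all windows. The windows ran from AT-rich to GC-rich. The SI window had 32.7% G and C bases and 0 CpG dinucleotides, whereas the LRRN1 window had 75.3% and 42 CpG with 4 GC boxes, against medians of 58.7% and 14 CpG over all windows. A match describes these letters only, and its absence says only that the letters are not in the window.

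The values are RPKM, which divide the reads of a gene by its length and by the size of the library, so levels can be set beside each other across genes. Estimated depth ran from 6.53 to 18.3 M (mega) reads per library, and the 3 deepest libraries were those of R1881 alone. The androgen-responsive controls moved with the labels. KLK3 averaged 619 ± 7.46 RPKM with R1881 plus MEL-6, 2219.7 ± 59.3 with R1881 and 308 ± 32.9 with vehicle (SD, n = 3 each). FKBP5, a co-chaperone of steroid receptors, averaged 7.99 ± 0.212 RPKM with R1881 plus MEL-6, 212 ± 1.35 with R1881 and 9.53 ± 0.315 with vehicle. Of the markers of other cell types, KRT5 and TP63 of basal cells, PECAM1 of endothelium, and PTPRC of leukocytes were listed at 0 in every library. Others were above 0, and 1 of 7 endothelial and 1 of 7 leukocyte markers were tested. The endothelial VWF was called higher with MEL-6 than with R1881, at log2 0.38 (limma adjusted p = 0.0428), but not with median-of-ratios scaling (limma adjusted p = 0.0709). The leukocyte marker CD68 was not called, at 0.18 (limma adjusted p = 0.263). The endothelial list summed to at most 1.71 RPKM in a library and the leukocyte list to at most 4.28. All 13 luminal markers were tested. With MEL-6 against R1881, 2 were called higher and 7 lower, against 31.4% and 20.6% of all tested genes. With R1881 against vehicle 8 were higher and 4 lower, against 14.5% and 31.3%. With MEL-6 against vehicle 5 were higher and 3 lower, against 17.2% and 20.8%. The keratins KRT8 and KRT18 fell with MEL-6 over R1881, at log2 changes of -2.50 and -1.86. Against vehicle they were not called, at -0.01 and 0.03 (limma adjusted p = 0.926 and 0.717). In bulk RNA of this kind, fewer cells expressing a gene and less RNA per cell cannot be told apart.

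With R1881 plus MEL-6, all 9 genes were higher than with R1881 alone, by log2 1.79 to 2.90, and 8 of the 9 were still lower than with vehicle. In the first of these comparisons the 9 calls were set against a background in which 31.4% of all tested genes were called higher, and no MEL-6 library overlapped an R1881 library for any of the 9, a separation seen in the same direction in 35.8% of tested genes. The median log2 change was 2.42 over the 9 genes and 0.0747 over all tested genes. In the second comparison 20.8% of tested genes were called lower and 24.9% were lower without overlap, and the medians were -0.74 over the 9 genes and -0.01 over all. For R1881 against vehicle, the contrast that chose the genes, the libraries did not overlap for any of the 9, against 39.9% of tested genes lower without overlap and 31.3% called lower. The R1881 libraries serve in the first comparison and the vehicle libraries in the second, and both also entered the choice of the genes. Only the MEL-6 libraries were not used to choose them.

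**Figure D1:**
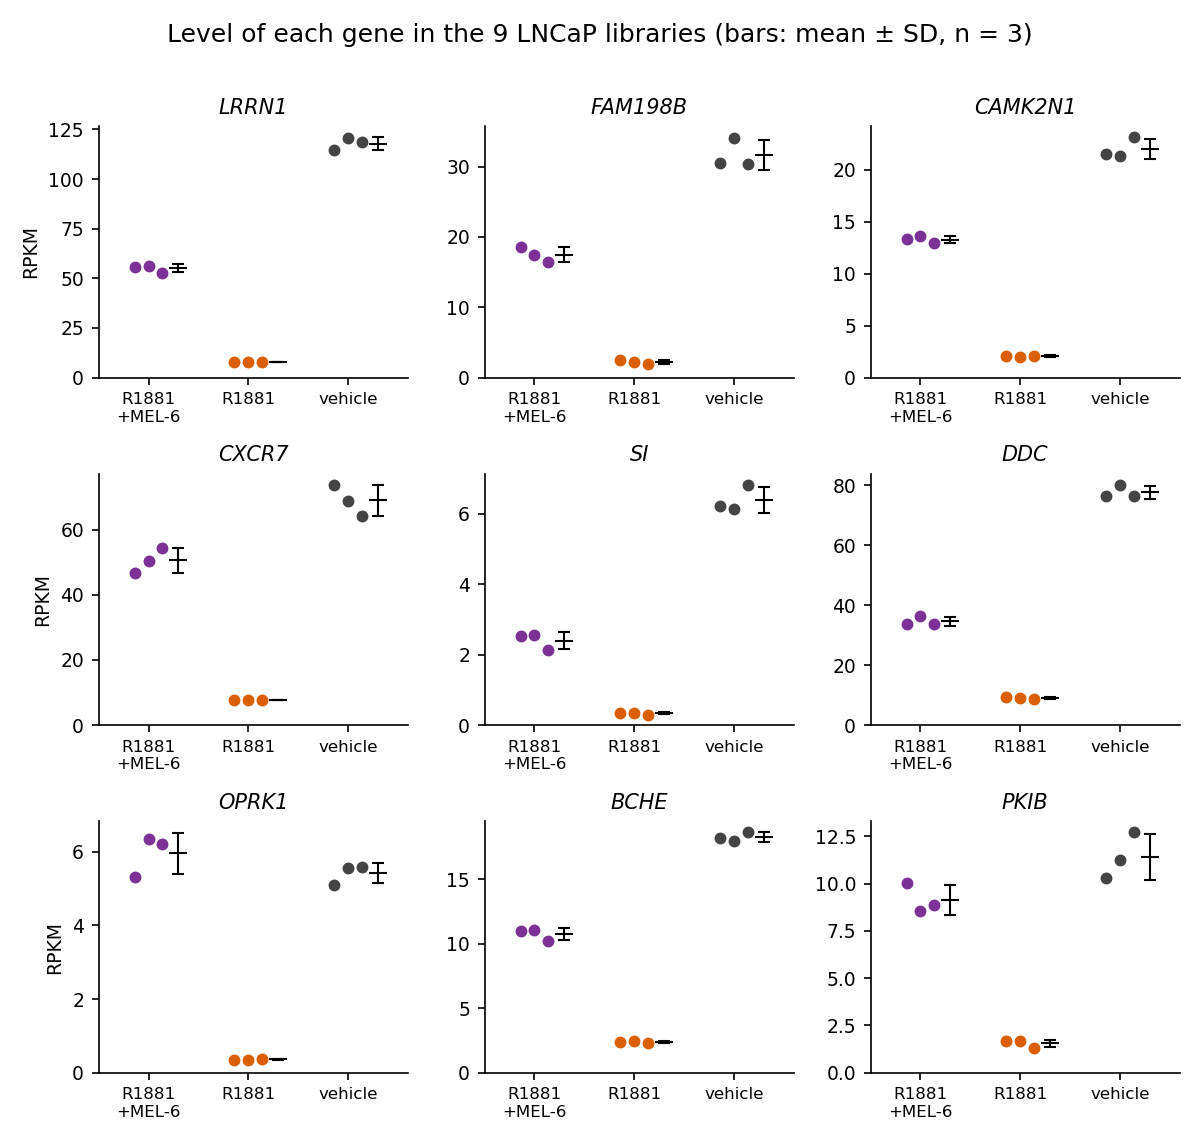
RPKM of the 9 genes in each library, with R1881 plus MEL-6 at the left, R1881 in the middle and vehicle at the right of each panel. Points are the 3 libraries of a group and the bars beside them the mean ± SD, and OPRK1 is the gene whose MEL-6 and vehicle points overlap.

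The surface receptors were the genes whose levels with MEL-6 came nearest to or passed vehicle, along with PKIB. CXCR7 (GRCh37, chromosome 2, 237478380 to 237490997) encodes an atypical chemokine receptor that binds CXCL12 and CXCL11, signals through arrestins and removes these ligands. Its level was 46.8, 50.5 and 54.3 RPKM with R1881 plus MEL-6, 7.80, 7.70 and 7.75 RPKM with R1881 and 73.8, 68.9 and 64.1 RPKM with vehicle. The groups did not overlap, and the 3 R1881 libraries had a coefficient of variation of 0.668%. CXCR7 was higher with MEL-6 than with R1881 by log2 2.63 ± 0.067 (SE, limma adjusted p = 1.1e-09) and lower than with vehicle by a log2 change of -0.44 ± 0.067 (limma adjusted p = 0.00058), at 73.3% of the vehicle mean. The R1881 mean was 11.2% of the vehicle mean.

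OPRK1 (chromosome 8, 54138276 to 54164194) encodes the kappa opioid receptor, which couples to inhibitory G proteins and binds dynorphins. It stood at 5.32, 6.34 and 6.21 RPKM with R1881 plus MEL-6, 0.358, 0.359 and 0.377 RPKM with R1881 and 5.10, 5.56 and 5.57 RPKM with vehicle. The MEL-6 and vehicle libraries overlapped and every R1881 library lay far below both. The rise with MEL-6 over R1881 was log2 2.90 ± 0.092 (limma adjusted p = 4.41e-09), or 16.3-fold in mean RPKM, the highest fold among the 9. Against vehicle the log2 difference was 0.12 with a 95% confidence interval from -0.08 to 0.33 (limma adjusted p = 0.32), so neither a small excess nor equality was shown.

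Genes around these receptors on their pathways did not share one direction. For each list below, the background for MEL-6 against R1881 was 31.4% of all tested genes called higher and 20.6% called lower. Of 16 genes listed for the CXCR7 axis, 6 were tested, and with MEL-6 against R1881 2 were called higher and 2 lower. CXCR4, the other CXCL12 receptor, averaged 0.337 ± 0.0562 RPKM with R1881 plus MEL-6, 1.09 ± 0.0948 with R1881 and 0.145 ± 0.0739 with vehicle, opposite in direction to CXCR7. ARRB2, a beta-arrestin, rose by log2 0.71 ± 0.053 with MEL-6 over R1881, GRK5, a receptor kinase, rose by 0.61, and ADRBK1, another receptor kinase, fell by 0.52. CXCL12 and CXCL11 were below the tested level. Of 16 opioid system genes 6 were tested, and 3 were higher and 1 lower with MEL-6. GNAZ, an inhibitory G protein subunit, rose by log2 1.30 and the G protein regulator RGS10 by 0.75, while the receptor genes OPRM1 and OPRD1 and the peptide genes PENK and POMC were at 0.

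CAMK2N1 (chromosome 1, 20808884 to 20812728) encodes an endogenous inhibitor of calcium/calmodulin-dependent protein kinase II. It was at 13.3, 13.6 and 12.9 RPKM with R1881 plus MEL-6, 2.12, 1.99 and 2.12 RPKM with R1881 and 21.5, 21.3 and 23.1 RPKM with vehicle. The 3 groups were well apart, with the MEL-6 libraries between the others. CAMK2N1 rose by log2 2.42 ± 0.060 with MEL-6 over R1881 (limma adjusted p = 9.92e-10) and was at 60.3% of vehicle, a log2 change of -0.71 ± 0.060 (limma adjusted p = 1.21e-05).

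PKIB (chromosome 6, 122793062 to 123047518) encodes the beta form of the inhibitor that blocks the catalytic subunit of cyclic AMP-dependent protein kinase. Its values were 10.1, 8.54 and 8.86 RPKM with R1881 plus MEL-6, 1.66, 1.67 and 1.33 RPKM with R1881 and 10.3, 11.2 and 12.7 RPKM with vehicle. The highest MEL-6 library lay just under the lowest vehicle library. PKIB rose by log2 2.23 ± 0.10 with MEL-6 over R1881 (limma adjusted p = 6.36e-08). Its shortfall from vehicle, a log2 change of -0.30 ± 0.10 (limma adjusted p = 0.0407), was the weakest of the 8, and it lost its call in 9 of 17 other settings, in which the adjusted p reached 0.143. These included leaving out MEL-6 replicate 2 or 3 or vehicle replicate 2 or 3.

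The partners of the 2 inhibitors moved in both directions. Of 17 genes of the calcium/calmodulin kinase list, CAMK2N1 aside, 15 were tested, and 6 were higher and 5 lower with MEL-6 than with R1881 (median log2 0.02). CAMK2D, a subunit of the kinase that CAMK2N1 inhibits, averaged 5.13 ± 0.0803 RPKM with R1881 plus MEL-6, 0.964 ± 0.106 with R1881 and 3.70 ± 0.158 with vehicle. CAMK2N2, the other inhibitor of this kinase, went the opposite way to CAMK2N1, by log2 -0.80 ± 0.16 with MEL-6 over R1881, and so did CAMKK2, an upstream kinase and classical androgen target, by -1.99. Of 24 genes of the cyclic AMP-dependent kinase list 22 were tested, with 8 higher and 3 lower (median log2 0.09). AKAP12, an anchoring protein, fell by 2.11 on the log2 scale and ADCY7, an adenylyl cyclase, rose by 0.90. PKIG, the gamma form of the inhibitor, rose by 0.55, and PKIA, the alpha form, was below the tested level.

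DDC (chromosome 7, 50526134 to 50633154) encodes the decarboxylase that makes dopamine and serotonin from their amino acid precursors. It was at 33.8, 36.3 and 33.7 RPKM with R1881 plus MEL-6, 9.46, 8.90 and 8.87 RPKM with R1881 and 76.3, 80.2 and 76.5 RPKM with vehicle. DDC kept the highest level of the 9 under R1881, and its 3.81-fold rise with MEL-6 was the smallest of the 9 in mean RPKM. The rise was log2 1.87 ± 0.052 over R1881 (limma adjusted p = 2.06e-09), and the level with MEL-6 was 44.6% of vehicle, a log2 change of -1.15 ± 0.052 (limma adjusted p = 1.9e-07).

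BCHE (chromosome 3, 165490692 to 165555253) encodes butyrylcholinesterase, the cholinesterase of serum. Its level was 11.0, 11.1 and 10.2 RPKM with R1881 plus MEL-6, 2.41, 2.46 and 2.34 RPKM with R1881 and 18.2, 17.9 and 18.6 RPKM with vehicle. The groups were separate and each was tight. BCHE rose by log2 1.95 ± 0.060 over R1881 (limma adjusted p = 3.87e-09) and was at 58.9% of vehicle, a log2 change of -0.74 ± 0.060 (limma adjusted p = 8.83e-06).

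SI (chromosome 3, 164696686 to 164796283) encodes sucrase-isomaltase, the disaccharidase of the intestinal brush border. It was at 2.52, 2.55 and 2.12 RPKM with R1881 plus MEL-6, 0.352, 0.346 and 0.302 RPKM with R1881 and 6.21, 6.13 and 6.80 RPKM with vehicle. Under R1881 SI was the lowest of the 9 genes, at 5.22% of vehicle, and with MEL-6 it was again the furthest from vehicle, at 37.5%. The log2 changes were 1.79 ± 0.099 over R1881 (limma adjusted p = 2.31e-07) and -1.25 ± 0.099 against vehicle (limma adjusted p = 7.17e-06). The R1881 values of SI and OPRK1 rest on an estimated 26.4 to 39.6 reads per library, and the pseudocount of 0.5 RPKM compresses their changes. With a pseudocount of 0.1 RPKM the log2 change over R1881 was 2.52 for SI and 3.70 for OPRK1.

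Other enzymes of these pathways were sparse or moved apart. Of 20 monoamine genes, DDC aside, 11 were tested, 3 higher and 3 lower with MEL-6 than with R1881, and TH, TPH2 and DBH were at 0. MAOA, which breaks down monoamines, averaged 115 ± 4.56 RPKM with R1881 plus MEL-6, 188 ± 2.61 with R1881 and 97.1 ± 6.19 with vehicle, opposite in direction to DDC. Of 15 cholinergic genes 6 were tested, 3 higher and 1 lower. The receptor subunit CHRNA2 fell by 2.44 on the log2 scale with MEL-6 over R1881, the muscarinic receptor CHRM3 rose by 1.02, and ACHE was below the tested level. Of 18 brush border genes and their regulators only 3 were tested. All 3 were called higher with MEL-6, as were 31.4% of all tested genes, so no direction is given for the list. Among them were LGALS4, a galectin, by log2 0.91 and GATA6, a transcription factor, by 0.50. LGALS4 averaged no more than 0.692 RPKM in any group.

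LRRN1 (chromosome 3, 3841121 to 3889387) encodes a transmembrane protein with leucine-rich repeats, known from neurons. It had the highest vehicle level of the 9 and the steepest fall on the log2 scale with its pseudocount of 0.5 RPKM, while by mean RPKM the fall of SI was steeper, 19.1-fold against 15.0-fold. Its values were 56.0, 56.3 and 52.7 RPKM with R1881 plus MEL-6, 7.99, 7.81 and 7.76 RPKM with R1881 and 114, 120.5 and 119 RPKM with vehicle. The MEL-6 libraries lay between the others without overlap. LRRN1 rose by log2 2.73 ± 0.047 over R1881 (limma adjusted p = 7.63e-11) and was at 46.6% of vehicle, a log2 change of -1.09 ± 0.047 (limma adjusted p = 1.63e-07). The low-level entry LOC100507555 lies inside the span of LRRN1 and averaged 1.50 ± 0.0430 RPKM with R1881 plus MEL-6, 0.288 ± 0.104 with R1881 and 4.30 ± 0.319 with vehicle. Whether strand was used in counting was not given in the sources used here, so reads of these 2 entries cannot be told apart.

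FAM198B (chromosome 4, 159045732 to 159094202) encodes a Golgi-associated protein related to the FAM20 secretory kinases. It was at 18.6, 17.4 and 16.5 RPKM with R1881 plus MEL-6, 2.55, 2.18 and 1.90 RPKM with R1881 and 30.5, 34.1 and 30.4 RPKM with vehicle. Its R1881 libraries were the most spread of the 9 genes, with a coefficient of variation of 14.7%, and still far under the other groups. FAM198B rose by log2 2.74 ± 0.091 over R1881 (limma adjusted p = 6.76e-09) and was at 55.2% of vehicle, a log2 change of -0.84 ± 0.091 (limma adjusted p = 6.22e-05).

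Many relatives of the last pair were below the tested level, and those called moved in both directions. LRRN2, LRRN3 and LRRN4 were below the tested level. Of 20 genes for leucine-rich neuronal membrane proteins, LRRN1 aside, 8 were tested, 5 higher and 1 lower with MEL-6 than with R1881. LRIG3, at log2 0.92, and FLRT1, at 0.70, were among the 5. The one that fell, LRIG1, an inhibitor of growth factor receptors, averaged 30.6 ± 0.522 RPKM with R1881 plus MEL-6, 108 ± 2.07 with R1881 and 24.2 ± 1.99 with vehicle. Of 8 genes on the FAM20 and FAM198 list, which also holds FAM69A and FAM69B, 4 were tested. FAM20C at log2 0.63 and FAM69B at 0.46 were the 2 called higher, and FAM69A at -0.61 the 1 called lower. With median-of-ratios scaling the calls of MEL-6 against R1881 became 5 higher and 7 lower for the calcium/calmodulin kinase list, 2 and 2 for the opioid list, 2 and 5 for the monoamine list, and 3 and 2 for the leucine-rich list, so none of these has one direction.

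**Figure D2:**
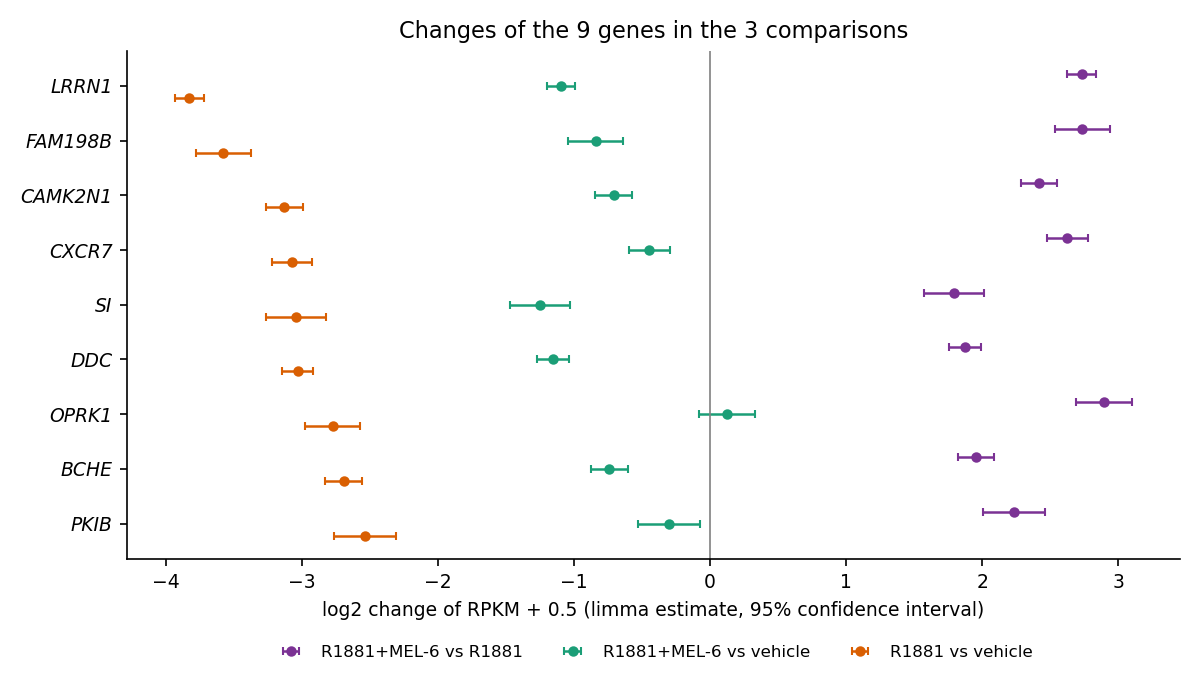
Log2 change of RPKM plus 0.5 for each gene, with its 95% confidence interval, for R1881 plus MEL-6 against R1881, R1881 plus MEL-6 against vehicle, and R1881 against vehicle. Only the interval of OPRK1 in the comparison of MEL-6 with vehicle spans 0, and the R1881 against vehicle points chose the genes.

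The 9 genes differed among themselves in how far the MEL-6 level stood from the R1881 level toward vehicle. On the linear RPKM scale the MEL-6 mean covered 34.1% of that distance for SI, 37.3% for DDC, 42.8% for LRRN1, 51.8% for FAM198B, 52.6% for BCHE, 56.2% for CAMK2N1, 69.9% for CXCR7, 77.0% for PKIB and 111% for OPRK1. SI and OPRK1, at 5.22% and 6.74% of vehicle under R1881, stood at opposite ends of this order. These were also the 2 genes with the lowest vehicle RPKM. Whether the order was related to the depth of the fall or to the level was not tested. The profiles over the 9 libraries were compared by the root-mean-square difference of centred log2 values. LRRN1 with FAM198B, at 0.145, and CAMK2N1 with CXCR7, at 0.149, were close pairs, and with a pseudocount of 0.1 RPKM, chosen after seeing the data, they stayed so at 0.139 and 0.154. The pairs that hold SI or OPRK1 depended on the pseudocount, since both lie below 0.5 RPKM under R1881. SI and DDC were the closest of all pairs at 0.0823 but stood at 0.357 with the lower pseudocount. The most distant pair was SI with OPRK1 at 0.604, and with the lower pseudocount it was DDC with OPRK1 at 0.755.

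Ordered by level, the 9 genes ran LRRN1, CXCR7, DDC, FAM198B, CAMK2N1, BCHE, PKIB, OPRK1 and SI with R1881 plus MEL-6. Only LRRN1 and CXCR7 overlapped as neighbours in that order. With R1881 the order was DDC, LRRN1, CXCR7, BCHE, FAM198B, CAMK2N1, PKIB, OPRK1 and SI, where LRRN1 overlapped CXCR7, BCHE overlapped FAM198B, and FAM198B overlapped CAMK2N1. With vehicle it was LRRN1, DDC, CXCR7, FAM198B, CAMK2N1, BCHE, PKIB, SI and OPRK1, with no overlap between neighbours. The vehicle means ran from 5.41 RPKM for OPRK1 to 118 RPKM for LRRN1, and the R1881 means from 0.333 RPKM for SI to 9.08 RPKM for DDC.

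The R1881 falls of the 9 genes spanned log2 changes of -3.82 for LRRN1 to -2.54 for PKIB. Among genes with at least 5 RPKM in vehicle, 2 others lay within that range. GRB10, an adaptor of the insulin receptor, averaged 123 ± 6.98 RPKM with R1881 plus MEL-6, 24.1 ± 0.832 with R1881 and 147 ± 3.65 with vehicle. LOC647859 averaged 2.90 ± 0.644 RPKM with R1881 plus MEL-6, 0.550 ± 0.394 with R1881 and 7.68 ± 0.522 with vehicle. Just outside the range on the shallow side were MANEA, a mannosidase of the Golgi, at -2.50, SERPINI1, a neuronal protease inhibitor, at -2.42, and the synapse organiser CBLN2 at -2.40. In all, 259 genes other than the 9, these among them, were called lower with R1881 by a log2 change of 1 or more. Among them 235 were higher and 3 lower with MEL-6 than with R1881, and 110 were lower and 24 higher with MEL-6 than with vehicle. Their MEL-6 mean as a percentage of vehicle had a median of 78.9 (lower quartile 63.7), and 7 of the 9 genes stood below that median, with PKIB at 80.2% and OPRK1 at 110.0% above it. Both sets were chosen by R1881 against vehicle, so this is a description with no test. Their falls were unlike, with a median log2 change of -1.21 for the 259 genes and -3.04 for the 9. A percentage of vehicle therefore starts from a lower R1881 level in the 9.

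**Figure D3:**
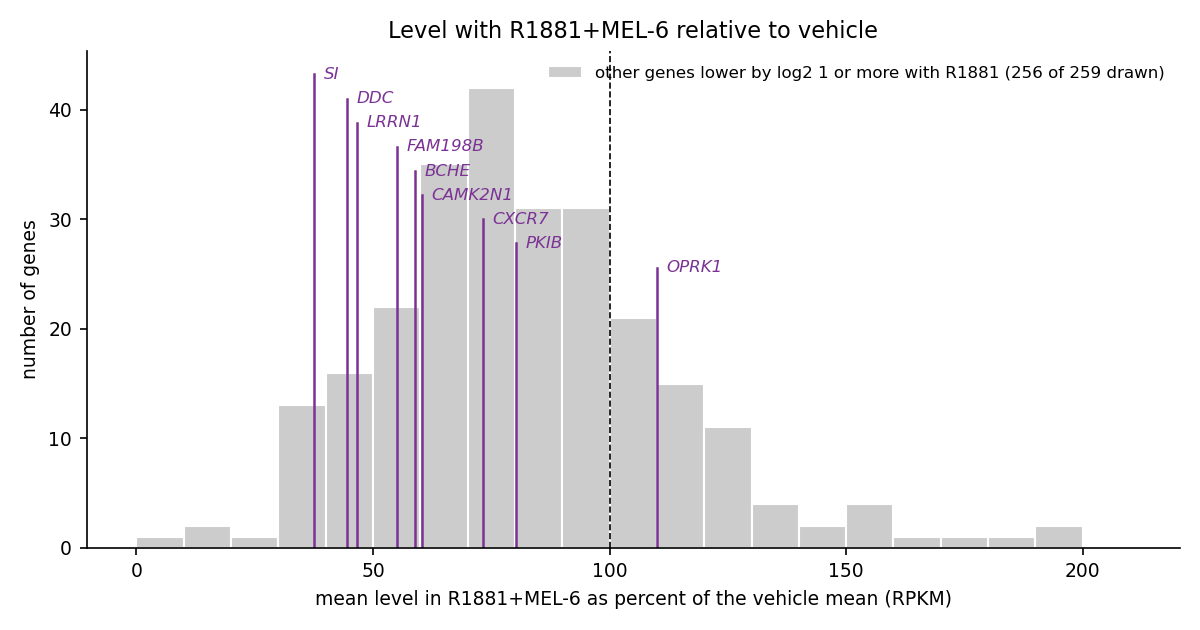
Mean level with R1881 plus MEL-6 as a percentage of the vehicle mean, on the horizontal axis, with bars counting the other genes called lower with R1881 by log2 1 or more and purple lines marking the 9 genes. Bars cover 256 of the 259 genes, and the lines run from SI at 37.5% to OPRK1 at 110.0%, with the dashed line at the vehicle level.

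Nearest profiles were sought among tested genes outside the 9 with a mean of at least 5 RPKM in at least 1 group. The nearest to PKIB, CXCR7, OPRK1, CAMK2N1, FAM198B and LRRN1 was that of GRB10, at root-mean-square differences of 0.146, 0.210, 0.245, 0.247, 0.424 and 0.519 log2 units over the 9 libraries. MANEA was the nearest to BCHE at 0.138 and to DDC at 0.273, and SERPINI1 the nearest to SI at 0.282. With a pseudocount of 0.1 RPKM the nearest gene to BCHE and DDC was SERPINI1, at 0.174 and 0.247, and the differences for SI and OPRK1 grew to 0.552 and 0.573. LRRN1 had the largest difference to its nearest gene, and its second nearest, LOC647859, was at 0.527. LOC100507555, inside the span of LRRN1, had a vehicle mean of 4.30 RPKM and so was not among the genes compared.

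Some of the repressed genes lie close to other genes that fell. In the table's GRCh37 coordinates, 49 distinct entries outside the 9 were among the 3 nearest on each side of a member, and 21 of them were tested. With MEL-6 against R1881, 7 were called higher and 2 lower, against 31.4% and 20.6% of all tested genes, so the share called higher was near the background. With R1881 against vehicle, 11 were called lower and 2 higher, against 31.3% and 14.5% of all tested genes, with a median log2 change of -0.42 against -0.12 over all. LOC100507555, inside the span of LRRN1, is counted among the 7 and the 11. Its reads cannot be told apart from those of LRRN1. SI and BCHE are neighbours on the long arm of chromosome 3 and have SLITRK3, a neuronal synapse protein gene, between them. SLITRK3 averaged 10.1 ± 0.645 RPKM with R1881 plus MEL-6, 2.76 ± 0.109 with R1881 and 15.7 ± 0.304 with vehicle, a log2 change of 1.70 over R1881 (limma adjusted p = 1.84e-08) and -2.31 for R1881 against vehicle (limma adjusted p = 1.48e-09). Further along, SERPINI1 averaged 10.3 ± 0.728 RPKM with R1881 plus MEL-6, 2.89 ± 0.247 with R1881 and 17.7 ± 2.14 with vehicle.

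Within 5 Mb on either side of SI and BCHE, 22 other genes were tested, and 2 of them, SLITRK3 and SERPINI1, fell with R1881 by a log2 change of 2 or more, as 0.158% of all tested genes did. The stretch was drawn after its values were seen, and the fall was not shared by every gene in it. PDCD10, which lies beside SERPINI1, averaged 33.7 ± 3.57 RPKM with R1881 plus MEL-6, 39.4 ± 1.59 with R1881 and 36.2 ± 3.13 with vehicle, a log2 change of 0.12 for R1881 against vehicle (limma adjusted p = 0.251).

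**Figure D4:**
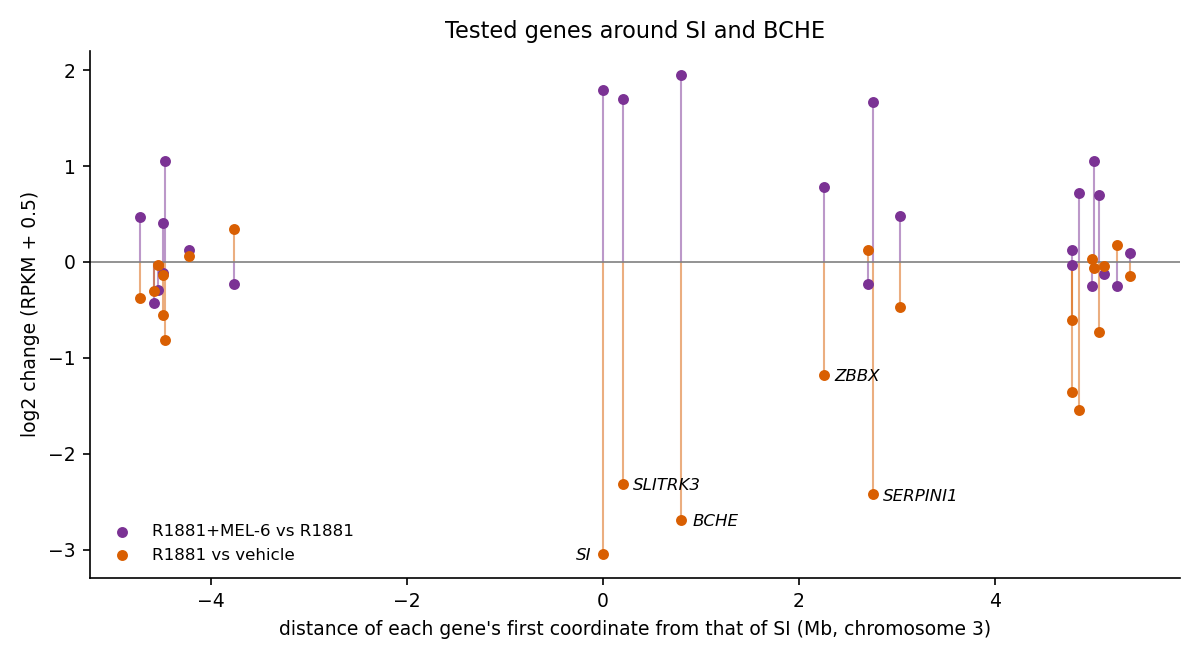
Log2 change of each tested gene within 5 Mb of SI and BCHE, on the vertical axis, against the distance of its first coordinate from that of SI in Mb, for R1881 plus MEL-6 against R1881 and for R1881 against vehicle. SI, SLITRK3, BCHE and SERPINI1 have the lowest R1881 values, from -3.04 to -2.31, and all 4 have positive values with MEL-6.

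GRB10 lies 24.6 kb from DDC and, like it, was higher with MEL-6 than with R1881, by log2 2.33 ± 0.054 (limma adjusted p = 6.28e-10). FIGNL1, a DNA repair ATPase gene 8.04 kb from DDC on the other side, fell with R1881 but was not called with MEL-6. It averaged 12.6 ± 0.526 RPKM with R1881 plus MEL-6, 13.5 ± 0.829 with R1881 and 31.8 ± 1.47 with vehicle, so that its log2 change for R1881 against vehicle was -1.21 (limma adjusted p = 1.51e-07) and its change with MEL-6 over R1881 was -0.09 (limma adjusted p = 0.253). With median-of-ratios scaling FIGNL1 was called lower with MEL-6, at -0.19. TMEM144, 37.2 kb from FAM198B, averaged 12.1 ± 0.716 RPKM with R1881 plus MEL-6, 4.46 ± 0.390 with R1881 and 13.5 ± 1.04 with vehicle, a log2 change of 1.34 over R1881 (limma adjusted p = 4.4e-07). By contrast SERINC1, 0.109 kb from PKIB, was called lower with MEL-6 than with R1881, at log2 -0.20 (limma adjusted p = 0.0233). MUL1, 13.2 kb from CAMK2N1, was not called, at -0.13 (limma adjusted p = 0.239).

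Genes known to be lowered by androgen in prostate cells formed a mixed list. Of 21 genes on it 17 were tested. With MEL-6 than with R1881, 11 were higher and 4 lower, against 31.4% and 20.6% of all tested genes. The median log2 change was 0.91, against 0.0747 over all tested genes. With R1881 than with vehicle, 13 were lower and 4 higher, against 31.3% and 14.5% of all tested genes. The median was -0.97, against -0.12 over all. This list and that of genes known to rise were chosen with earlier results of these data known, so both are descriptions only. GRB10 had the largest change of the called genes on the falling list. KLF5, a transcription factor listed as falling, went the other way, by log2 -1.62 with MEL-6 over R1881. All 20 genes of the list known to rise were called lower with MEL-6 than with R1881, as were 20.6% of all tested genes, and higher with R1881 than with vehicle, as were 14.5%. Of 22 corepressors and histone repressors 21 were tested. With R1881 against vehicle 12 were called lower and 4 higher, but with median-of-ratios scaling 3 were lower and 5 higher, so no direction is given for that list. With MEL-6 against R1881 7 were higher and 6 lower, and 4 and 10 with median-of-ratios scaling. CTBP1, a corepressor, rose by log2 0.96 in that comparison, and NRIP1, another, fell by 0.92 on the log2 scale.

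Some markers of other cell types moved in the same direction as the 9 genes with MEL-6 over R1881. Of 12 neuroendocrine markers 2 were tested, and ENO2, a glycolytic enzyme, rose by log2 0.99 with MEL-6 over R1881, while SYP, a synaptic vesicle protein, was not called, at -0.15 (limma adjusted p = 0.464). The summed level of the 12 was 52.9 to 59.6 RPKM with R1881 plus MEL-6, 27.5 to 29.9 with R1881 and 42.9 to 46.4 with vehicle, nearly all of it ENO2, and the transcription factor genes INSM1 and NEUROD1 were at 0. Of 9 fibroblast markers 3 were tested and called higher with MEL-6, as were 31.4% of all tested genes. These were FN1, VIM and COL1A1, by log2 1.53, 1.50 and 0.53. Their list summed to 19.9 to 21.3 RPKM with R1881 plus MEL-6, 7.31 to 7.73 with R1881 and 19.9 to 25.4 with vehicle, while COL1A2 was at 0 and DCN at or near 0. The 8 basal markers summed to 13.8 to 17.4 RPKM with R1881 plus MEL-6, 8.33 to 8.88 with R1881 and 11.7 to 12.1 with vehicle, nearly all from the integrin gene ITGA6. With MEL-6 against vehicle, ENO2, VIM, COL1A1 and ITGA6 were called higher, by log2 0.37, 0.96, 0.31 and 0.33. FN1 was called lower, at -0.28, as were 8 of the 9 genes.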

How the data were processed

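Polyadenylated RNA of 9 LNCaP libraries was sequenced after TruSeq preparation, per the labels. The deposited values are RPKM per gene and library on GRCh37, made by the authors, and CASAVA 1.8 is named in the submitters' processing notes. The aligner settings and strand use were not given in the sources used here. Genes reaching 0.5 RPKM in 3 or more libraries were tested, 13295 in all, and their log2(RPKM + 0.5) was fitted by limma-trend (limma 3.58.1, R 4.3.3) as 3 group means over all 9 libraries, two-sided, with Benjamini-Hochberg adjustment over all genes per comparison and calls at an adjusted p under 0.05. The procedure was tested on simulated data. Depth was estimated from the steps of low RPKM values and GENCODE exon lengths. The 9 genes and all gene lists were chosen with earlier results of these data known. Named genes are the 9, up to 4 called genes with the largest changes per list, the nearest profiles, genes within the range of the falls, and genomic neighbours. PKIG, KRT18, SYP, CD68, the genes at 0 or below the tested level and the 5 Mb stretch were picked after values were seen. Exact tests of 3 against 3 cannot go below p = 0.1. Motif letters were searched in RefSeq windows with Python. Alternatives were pseudocounts of 0.1 and 1, other filters, 2 scalings, pairwise fits, a replicate block and leaving out each library. Values of some listed genes are not reported here.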

Additional observations from a re-analysis of the deposited data

How the results depend on the processing

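In all, 297 of 306 values of the 9 genes, from 17 alternatives to each test of MEL-6 against R1881 and against vehicle, kept their direction and their side of the threshold. The 9 exceptions were all PKIB against vehicle. Its limma adjusted p was 0.0564 with median-of-ratios scaling, 0.0605 with upper-quartile scaling, 0.0521 with a pseudocount of 0.1, 0.0738 without a filter and 0.0736 with the replicate block, and leaving out 1 library gave up to 0.143. The cause was not tested. Same-numbered libraries deviated together at correlations of -0.197 to 0.198, and differently numbered ones at -0.18 to 0.187. These values gave no sign of pairing by number, but they cannot show whether same-numbered samples were prepared together. The replicate block left 9 genes called higher with MEL-6 than with R1881 and 7 lower than with vehicle. With median-of-ratios scaling the genes called lower with R1881 against vehicle numbered 2535 in place of 4155, those of the context lists 47 in place of 71, and the share of lower calls 47.7% in place of 68.3% (60.7% with upper-quartile scaling). For MEL-6 against R1881 that share was 53.7% in place of 39.6%. The scaling moves the median of all genes for R1881 against vehicle from -0.12 to -0.01. Leaving out 1 library gave 1 to 2 neighbours lower with MEL-6 than with R1881, 1 to 2 higher with MEL-6 than with vehicle and 0 to 2 higher with R1881 than with vehicle. Depth, known only as an estimate, limits SI and OPRK1 under R1881 most.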
